A study of Homo sapiens with 12 samples.

Results

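MALL, CCL2, TMEM158 and LYG1 are 4 of the 11767 genes that could be tested on 12 Affymetrix arrays of RNA from SH-SY5Y cells, a human neuroblastoma line with a noradrenergic, neuron-like character. They were chosen by the size of the fall in log2 signal in the 24 h controls relative to the 6 h controls, so that difference is described here without a test. By their labels, 3 arrays held cells given fibrillar amyloid-β (Aβ, the peptide of Alzheimer plaques) at 24 h of incubation, 3 held 24 h controls, 3 held cells given oligomeric Aβ at 6 h, and 3 held 6 h controls. Fibrils occur only at 24 h and oligomers only at 6 h, so peptide form and time cannot be told apart. The labels used here give no peptide dose, and they do not say whether the hours are the exposure of the cells or the ageing of the peptide. Values are log2 MAS5 signals, in which a difference of 1 is a doubling, and the number of arrays limits their precision. The labels do not say that replicates were separate cultures, and the spread behind each p-value may be technical.

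The 4 genes have unrelated products. MALL encodes a membrane protein of the MAL family, whose MARVEL domain crosses the membrane several times and which is found in cholesterol-rich membrane domains. CCL2, also called MCP-1, is a secreted chemokine that draws monocytes through the receptor CCR2 and is a known target of NF-κB. TMEM158, also called RIS1, is a membrane protein first described as induced by oncogenic RAS during senescence. LYG1 encodes a secreted protein of the goose-type lysozyme family. Each gene had 1 probe set annotated to its symbol alone. That of CCL2 carries the array maker's mark (_s_at) for probes that match more than a single transcript.

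By the size of the fall between controls, MALL ranked 1, CCL2 4, TMEM158 5 and LYG1 6 among the genes tested. CRY2 and DEPP1, at ranks 2 and 3 with differences of −2.58 and −2.53, are not members. LYG1, the last member, had a difference of −2.38. Past an uncharacterised RNA at −2.25, the next genes were FLYWCH1 at −2.12, RELB, an NF-κB subunit, at −1.93, and PBX2, a homeodomain protein, at −1.76.

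MALL, the raft-associated MAL-family protein, was low and uneven on the 24 h arrays. Its log2 signal was 4.17, 1.98 and 4.35 on the fibrillar 24 h arrays and −0.35, 4.05 and 1.0 on the 24 h controls. On the 6 h arrays it was 6.22, 6.07 and 5.98 with oligomers, against 6.00, 6.09 and 6.29 in the 6 h controls. All 6 arrays of 24 h therefore lay below all 6 arrays of 6 h, while the fibrillar and 24 h control values overlapped. On the linear scale the signal ran from 3.95 to 20.4 with fibrils and from 0.787 to 16.6 in the 24 h controls, around the filter level of 13.8 that separates the brighter probe sets from the dimmer ones. The 6 h signals ran from 63.3 to 74.5 with oligomers and from 63.9 to 78.3 in the controls.

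CCL2, the monocyte chemokine, had lower means on the 24 h arrays than on the 6 h arrays. Its log2 signal was 9.05, 7.65 and 7.09 on the fibrillar 24 h arrays and 6.61, 7.03 and 5.6 on the 24 h controls. With oligomers it was 9.80, 9.44 and 8.37, against 8.84, 9.46 and 8.37 in the 6 h controls. Fibrillar values stood above all 24 h controls, by a margin of only 7.09 against 7.03, and fibrillar replicate 1 reached into the range of the 6 h arrays. Replicate 3 was the lowest array of its group in all 4 groups. Every CCL2 value was above the filter level.

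TMEM158, the RAS-induced membrane protein, had fibrillar levels inside the range of the 6 h arrays. Its log2 signal was 5.52, 5.39 and 5.11 on the fibrillar 24 h arrays, against 1.89, 3.14 and 4.54 on the 24 h controls. The oligomeric arrays gave 6.45, 6.01 and 4.85 and the 6 h controls 5.08, 5.99 and 5.74. Fibrillar values were above all 24 h controls and overlapped both 6 h groups. Of the 24 h controls, 2 were under the filter level.

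LYG1, the lysozyme-like protein, was low in the 24 h controls and on 1 oligomeric array. Its log2 signal was 4.56, 4.28 and 4.70 on the fibrillar 24 h arrays, against 0.53, 3.44 and 2.62 on the 24 h controls, all 3 of which were under the filter level. Oligomeric arrays gave 4.86, 4.54 and 2.75, and the 6 h controls gave 4.61, 4.61 and 4.52. Oligomeric replicate 3 was thus as low as the 24 h controls. Its linear signal was 6.74, against 23.0 to 24.4 in the 6 h controls.

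**Figure D1:**
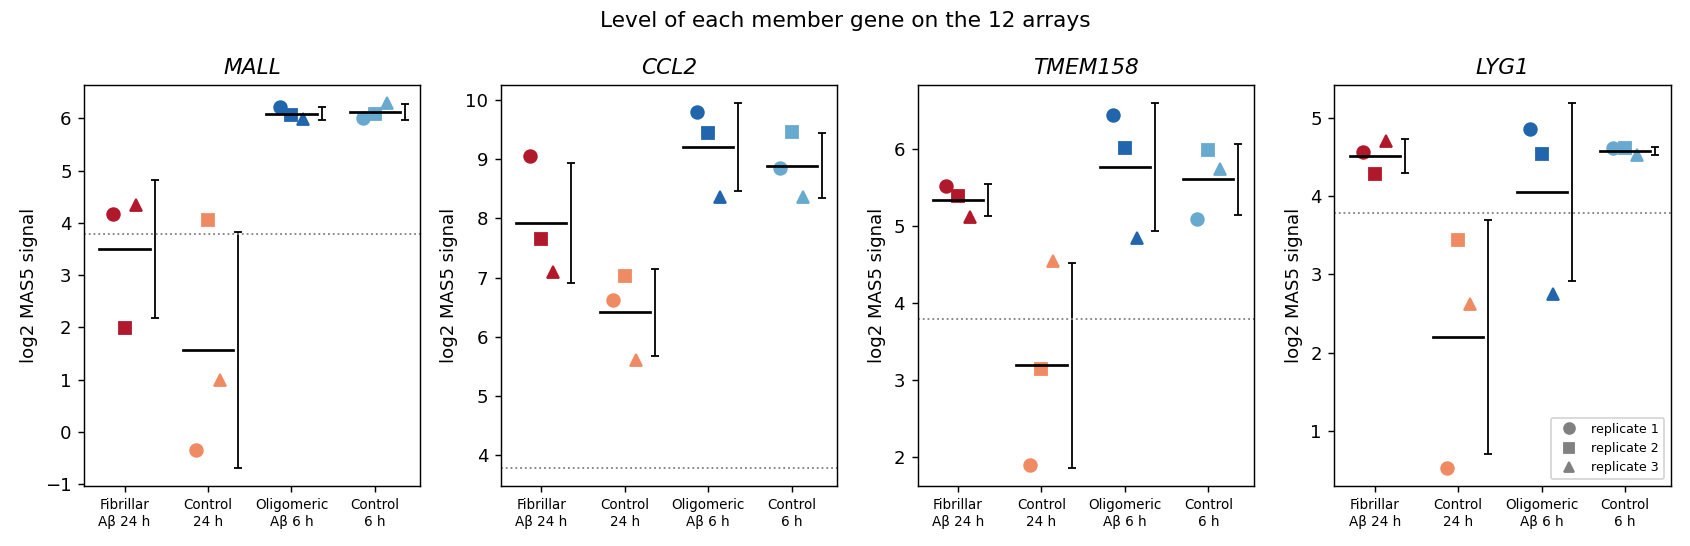
The log2 MAS5 signal (vertical axis) of each gene is shown by array in the fibrillar 24 h, control 24 h, oligomeric 6 h and control 6 h groups, with a line at each group mean, a bar of 1 SD (n = 3) and a dotted line at the filter level of 3.79. For TMEM158 and LYG1 the 24 h controls alone have means under that line, and for MALL both 24 h groups do.

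Between controls the difference, 24 h minus 6 h, was −4.56 for MALL, −2.48 for CCL2, −2.41 for TMEM158 and −2.38 for LYG1, with groups that did not overlap. For all 4 genes the 24 h controls lay below the 6 h controls, as they did for 18.9% of genes (13.7% lay above), and this follows from how the members were chosen. Much of the size of 3 of these differences rests on values close to the bottom of the scale. When 16 was added to the linear signal before the log, the differences became −2.0, −2.26, −1.28 and −0.87 in the same order, so that CCL2 kept most of its difference and had the largest of the 4.

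The 3 promoter windows at hand, of MALL and TMEM158, ranged from 44.4% to 82.4% G and C. The set of RefSeq promoters used here (GRCh38.p14) held windows for 2 of the 4 members and no entry for CCL2 or LYG1. The windows are shown as a description, since low levels in the 24 h controls are how the members were chosen. The 250 bases before each start are printed 5′ to 3′ on the minus strand, with MALL at chr2:110118140-110118389 for its outer start and chr2:110115823-110116072 for its inner start, and TMEM158 at chr3:45226288-45226537. Capitals mark matches, on either strand and with overlaps, to the AP-1 site (TGANTCA), the GC box (GGGCGG), the TATA box (TATAAA), the CAAT box (CCAAT) or the NF-κB site.
MALL outer start: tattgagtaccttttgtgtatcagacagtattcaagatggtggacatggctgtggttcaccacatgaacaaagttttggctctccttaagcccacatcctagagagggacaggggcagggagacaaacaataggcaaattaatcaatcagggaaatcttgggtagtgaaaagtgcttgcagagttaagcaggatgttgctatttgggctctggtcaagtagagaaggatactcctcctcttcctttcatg
MALL inner start: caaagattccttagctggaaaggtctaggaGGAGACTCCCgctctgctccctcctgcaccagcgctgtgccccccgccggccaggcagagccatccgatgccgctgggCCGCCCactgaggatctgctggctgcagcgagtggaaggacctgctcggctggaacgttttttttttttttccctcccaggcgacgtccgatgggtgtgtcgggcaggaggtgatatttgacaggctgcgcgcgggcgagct
TMEM158: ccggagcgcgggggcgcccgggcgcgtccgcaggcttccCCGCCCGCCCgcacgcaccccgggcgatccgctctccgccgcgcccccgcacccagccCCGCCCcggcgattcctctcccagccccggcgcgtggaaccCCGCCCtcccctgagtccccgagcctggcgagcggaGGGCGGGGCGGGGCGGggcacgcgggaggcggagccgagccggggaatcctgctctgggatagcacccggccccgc
The TMEM158 window was 82.4% G and C and held the GC box at 7 places, from 211 to 66 bases before the start. The MALL windows were 44.4% and 62.8% G and C, against a median of 58% over 35116 windows of the same length. The outer MALL window held none of the 5 motifs, and the inner window held a GC box and an NF-κB site at 1 place each. GC boxes were in 42.6% of all windows and NF-κB sites in 5.21%, while AP-1 sites (6.57%), TATA boxes (10.7%) and CAAT boxes (32%) matched in none of the windows shown. A match is a description of letters and not a bound site.

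The comparison of fibrillar 24 h with oligomeric 6 h arrays asked whether the 4 genes are also lower at 24 h on arrays left out of the ranking by fall between controls. The test is not wholly free of the control arrays. The filter used the mean over all arrays, and the fit shares its spread for each gene over all groups. Both 24 h means of MALL lie under the filter level, so it was tested because its 6 h arrays were high. MALL fell, CCL2 was lower without passing the test, and TMEM158 and LYG1 did not pass, with intervals on both sides of 0. MALL averaged 3.50 ± 1.32 with fibrils and 6.09 ± 0.12 with oligomers (SD, n = 3 each), a difference of −2.59 (SE 0.80; limma adjusted p = 0.0382), and the groups did not overlap. The fibrillar mean of MALL lies under the filter level, so no fold is given. CCL2 averaged 7.93 ± 1.01 with fibrils and 9.20 ± 0.75 with oligomers, a difference of −1.28 (SE 0.45; limma adjusted p = 0.0671), and the groups overlapped. So 1 of the 4 members was called, and it was lower, where 8.62% of all genes were called lower, 6.54% higher and 15.2% in either direction. The MALL groups lay apart, as did those of 16.9% of genes in the lower direction and 14.3% in the higher. At an unadjusted p under 0.05 stood 2 of the 4 members and 29.8% of genes.

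TMEM158 averaged 5.34 ± 0.21 with fibrils and 5.77 ± 0.83 with oligomers (SD, n = 3 each), a difference of −0.43 with a 95% interval from −1.51 to 0.66 (limma adjusted p = 0.635). LYG1 averaged 4.51 ± 0.22 with fibrils and 4.05 ± 1.14 with oligomers, a difference of 0.46 with an interval from −0.89 to 1.81 (limma adjusted p = 0.685). Without oligomeric replicate 3 the LYG1 difference was −0.19. The intervals were −4.28 to −0.90 for MALL and −2.23 to −0.32 for CCL2. They use a spread drawn toward that of genes of like level. With a robust prior variance the SE was 0.90 for MALL and 0.61 for CCL2, against 0.80 and 0.45 in the fit reported. Of the genes just outside the members, PBX2 fell by 1.59 in these arrays (SE 0.18; adjusted p = 7.66e-05), while RELB (−1.27, SE 0.72) and FLYWCH1 (−0.88, SE 0.68) did not pass. CRY2 and DEPP1, with larger control falls than 3 of the members, differed by 0.20 (SE 0.72) and −0.04 (SE 0.40).

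The call of MALL depended on the arrays and the settings used. It was lost without oligomeric replicate 1 (limma adjusted p = 0.0771), 2 (0.0948) or 3 (0.0868) and without fibrillar replicate 2 (0.14), although the difference stayed between −3.01 and −1.83. With 16 added to the signal it was −1.53 (adjusted p = 0.000726). In a fit of the 2 groups alone it was −2.59 (SE 0.50; limma adjusted p = 0.00816), and CCL2, TMEM158 and LYG1 did not pass. The MALL call was lost without the filter (limma adjusted p = 0.0616) and with probe sets averaged (0.0564). It was also lost with a constant (0.104) or robust (0.0744) prior variance and with array weights (0.0530). CCL2 passed without fibrillar replicate 1 (0.0104) or oligomeric replicate 3 (0.0333). It also passed with array weights (0.0402) and with the replicate number as a block (0.0052). The count of 1783 genes called by limma fell to 992 without fibrillar replicate 3, and to 1045 and 1142 without oligomeric replicates 2 and 3.

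**Figure D2:**
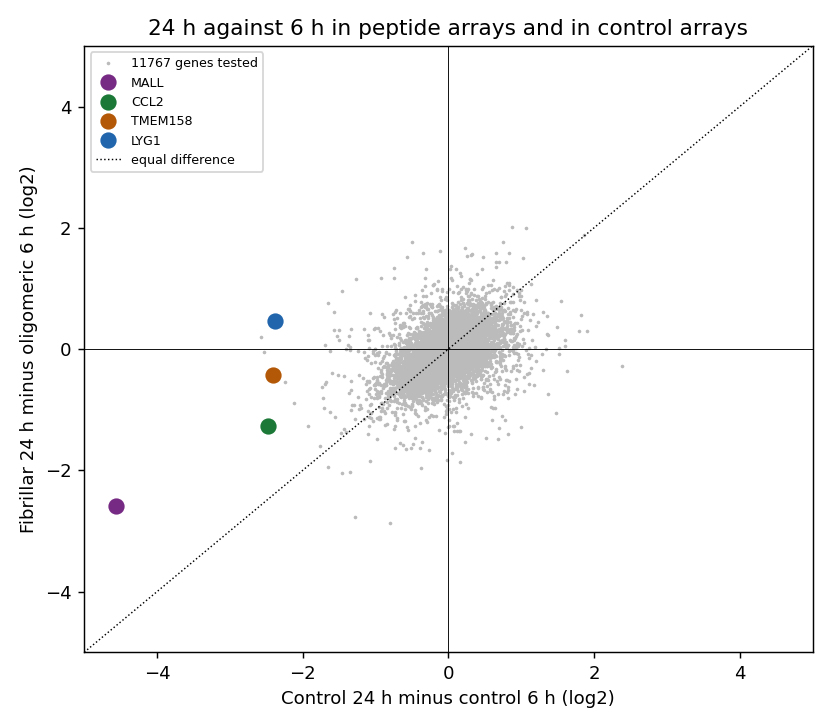
Each point is 1 of 11767 genes, with the fibrillar 24 h minus oligomeric 6 h difference on the vertical axis and the control 24 h minus control 6 h difference on the horizontal axis, both in log2 units, and a dotted line where they are equal. All 4 members lie above the dotted line, MALL at −2.59 against −4.56 and LYG1 at 0.46 against −2.38. Genes chosen for the largest falls on the horizontal axis tend to lie above that line, so their place is not a separate result.

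Each preparation was also compared with its own controls, at the same hours. Both control groups were used to choose the members, so these differences and their p-values are not free of that choice. Choosing genes that are low in the 24 h controls pushes the fibrillar differences upward, and an effect of the peptide cannot be separated from this. The mean level of all 4 genes at 24 h was higher with fibrils than in controls, and none of these differences passed over all genes tested. TMEM158 averaged 5.34 ± 0.21 with fibrils and 3.19 ± 1.33 in the 24 h controls (SD, n = 3 each), a difference of 2.15 (SE 0.51; limma adjusted p = 0.0518). LYG1 averaged 4.51 ± 0.22 with fibrils and 2.20 ± 1.5 in the controls, a difference of 2.32 (SE 0.64; limma adjusted p = 0.0974). The 24 h control means of TMEM158 and LYG1 lie under the filter level, so both were tested because their other groups were high. The mean of LYG1 over all arrays was 3.84, just above that level. CCL2 averaged 7.93 ± 1.01 with fibrils and 6.41 ± 0.74 in the controls, a difference of 1.51 (SE 0.45; limma adjusted p = 0.132).

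MALL averaged 3.50 ± 1.32 with fibrils and 1.57 ± 2.25 in the 24 h controls (SD, n = 3 each), a difference of 1.93 (SE 0.80; limma adjusted p = 0.275). The fibrillar arrays lay wholly above the controls for TMEM158, LYG1 and CCL2, as they did for 11% of genes, with 8.73% below. Of all genes 1.19% were called, 0.799% higher and 0.391% lower. These 24 h controls are arrays in which the members were chosen for being low, so the differences are not independent of that choice. With 16 added to the signal the differences were 1.08 for TMEM158, 0.84 for LYG1, 1.35 for CCL2 and 0.44 for MALL. TMEM158 passed without control 24 h replicate 3 (2.83; adjusted p = 0.0179) and MALL without control 24 h replicate 2 (3.17; adjusted p = 0.0229). Control 24 h replicate 1 was the lowest of its group for MALL, TMEM158 and LYG1, and without it their differences were 0.98, 1.5 and 1.48.

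No difference between oligomeric and control arrays was detected for the 4 genes at 6 h, within wide intervals. The difference from the 6 h controls was −0.04 for MALL (interval −1.72 to 1.65), 0.31 for CCL2 (−0.65 to 1.27), 0.16 for TMEM158 (−0.92 to 1.25) and −0.53 for LYG1 (−1.88 to 0.82). The MALL interval uses the spread shared with the 24 h arrays. On the 6 h arrays the SDs of MALL were 0.12 with oligomers and 0.15 in controls. In a fit of the 2 groups alone the SE of MALL was 0.16, against 0.80 in the fit reported. For all 4 the groups overlapped, where 3.59% of genes lay above and 3.76% below. Of all genes tested, limma called 0 (0%), with 327 (2.78%) at an unadjusted p under 0.05. This comparison shares the 6 h controls with the choice of members, where they were high.

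Set against the controls of the other time, the fibrillar arrays differed from the 6 h controls by −2.62 for MALL, −0.96 for CCL2, −0.26 for TMEM158 and −0.07 for LYG1. Oligomeric arrays differed from the 24 h controls by 4.52 for MALL, 2.79 for CCL2, 2.58 for TMEM158 and 1.86 for LYG1. The first pair of groups lay apart for MALL, as for 18.8% of genes below and 15.6% above. The second lay apart for MALL, CCL2 and TMEM158, as for 17% of genes above and 12.7% below. Hours and peptide both differ in these pairs, and they are given as values only. The fibrillar response less the oligomeric response was 1.97 for MALL (SE 1.13), 1.20 for CCL2 (SE 0.64), 1.99 for TMEM158 (SE 0.73) and 2.84 for LYG1 (SE 0.90). None of the 4 passed (limma adjusted p = 0.677, 0.642, 0.426 and 0.319), and 0.0425% of genes were called, 0.0085% higher and 0.034% lower. The same quantity is the fibrillar less oligomeric difference minus that between controls, so the difference with peptides was not shown to differ from that between controls. All 4 groups enter it, including the controls used in the choice. MALL, TMEM158 and LYG1 have 24 h control means under the filter level and were tested because other groups were high. The size of this difference between responses was not stable, although none of the 4 genes passed in any setting run. Without control 24 h replicate 1 it was 1.01 for MALL, and without control 24 h replicate 2 it was 3.21. CCL2 had 0.64 without fibrillar replicate 1, 0.78 without oligomeric replicate 3 and 0.79 without control 24 h replicate 3. With 16 added to the signal it was 0.47 for MALL, 1.05 for CCL2, 0.94 for TMEM158 and 1.06 for LYG1.

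**Figure D3:**
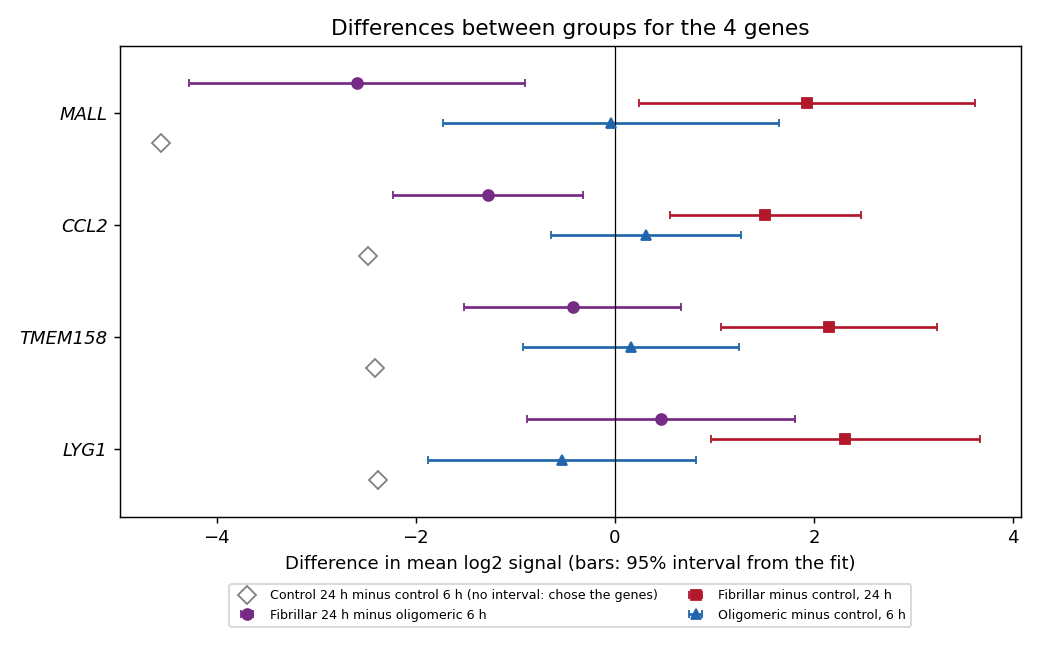
The difference in mean log2 signal (horizontal axis) is drawn for each gene with its 95% interval from the fit, for fibrillar 24 h minus oligomeric 6 h, fibrillar minus control at 24 h and oligomeric minus control at 6 h, with the control 24 h minus control 6 h difference as an open diamond. The oligomeric intervals all span 0, and the fibrillar differences at 24 h run from 1.51 to 2.32. The controls in both of these comparisons were used to choose the genes, so their intervals are not independent of that choice.

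The spread between replicates is given as a description, since it includes the control arrays used in the choice, and choosing large differences between means of 3 arrays favours genes of wide spread. The SD within groups, pooled over the 4 groups, was 1.31 for MALL, 0.78 for CCL2, 0.82 for TMEM158 and 0.95 for LYG1. The 500 genes nearest in mean level had median SDs of 0.46, 0.13, 0.33 and 0.55, and 99.6%, 99.8%, 98.2% and 88% of them had a smaller SD than the member. The level of CCL2 was above that of 63.2% of genes. The others are dim, with 5.97%, 13.9% and 0.612% of genes below MALL, TMEM158 and LYG1 in mean level. The fit draws each spread toward that of genes of like level. The SEs given for the 4 members are therefore smaller than their own spread alone would give. The spread was uneven between groups. MALL had SDs of 1.32 on fibrillar and 2.25 on 24 h control arrays, against 0.12 on oligomeric and 0.15 on 6 h control arrays, and the fit shares 1 spread per gene over the 4 groups.

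**Figure D4:**
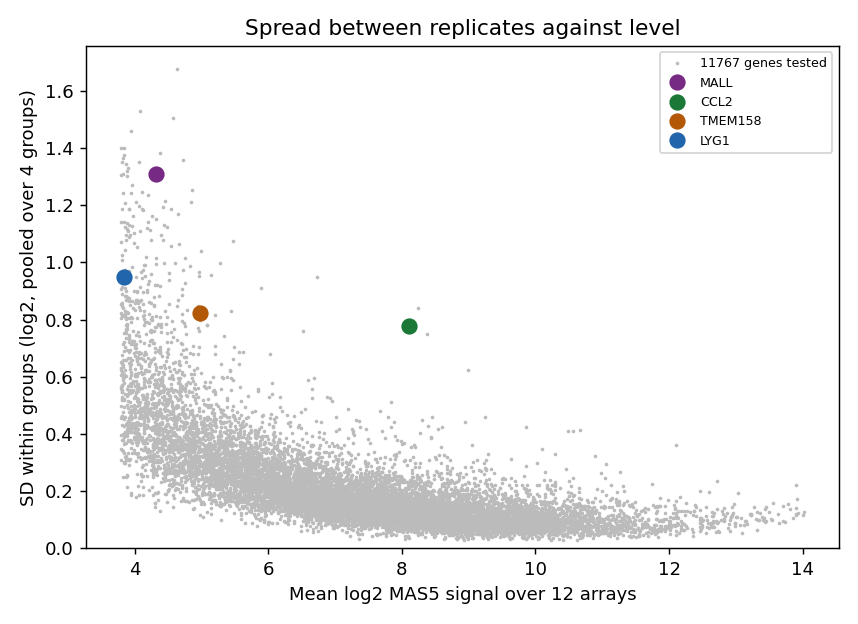
Each point is a gene, with the SD within groups (log2, vertical axis) against the mean log2 signal over 12 arrays (horizontal axis). MALL at 1.31, CCL2 at 0.78 and TMEM158 at 0.82 lie above nearly all genes of like level, and LYG1 at 0.95 above 88% of them.

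Among other genes of MARVEL domain proteins, 1 was called, in the opposite direction to MALL. Of 18 MARVEL domain genes, from the MAL and CMTM families and outside them, 9 were tested in fibrillar 24 h against oligomeric 6 h arrays. MALL fell, OCLN, the tight junction protein occludin, rose by 0.31 (SE 0.10; limma adjusted p = 0.0386), and 7 did not pass, among them CMTM7 (−0.21) and CMTM6 (0.14). Of all genes, 15.2% were called in either direction. MAL and MAL2, the closest namesakes, were under the filter. The list's median difference was 0.05, against −0.02 over all genes.

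Chemokine ligands were mostly dim. Of 43 listed, 38 had a probe set of their own and only CCL2, CXCL12 and CX3CL1 were above the filter. CXCL12, which acts through CXCR4, averaged 6.04 ± 0.34 with fibrils and 7.03 ± 0.30 with oligomers (SD, n = 3 each), and it fell by 0.99 (SE 0.19; limma adjusted p = 0.00263). Its mean was 5.63 in the 24 h controls and 6.86 in the 6 h controls, the order that CCL2 showed. CX3CL1 differed by 0.16 (SE 0.16). CCL7, CCL11 and CCL8, the chemokine genes next to CCL2 in the genome, were under the filter. CCR2, the receptor of CCL2, was also under it, and among the 23 chemokine receptor genes only CXCR4 was tested, with a difference of 0.27 (SE 0.13). LYG2, the neighbour and closest relative of LYG1, was under the filter. LYZL4 was the single other lysozyme-like gene tested, at 0.43 (SE 0.37).

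The lists were chosen with results known and are given as counts. Of 18 tested NF-κB targets and feedback genes, 2 rose and 0 fell by limma in fibrillar 24 h against oligomeric 6 h arrays, with a median difference of −0.14. REL, an NF-κB subunit, rose by 0.40 (SE 0.12) and BIRC2, an inhibitor of apoptosis, by 0.22 (SE 0.07), while NFKB1 (−0.50, SE 0.18) and RELA (−0.24, SE 0.10) did not pass. RAS and ERK output genes, the setting in which TMEM158 is known, had 4 of 30 called higher and 3 lower, with a median of 0.07, or 0.12 without TMEM158. Over all genes tested, 6.54% were called higher and 8.62% lower. MAFF, a small MAF transcription factor, rose by 0.70 (SE 0.12) and ELK3, an ETS factor, by 0.43 (SE 0.09). CCND1, cyclin D1, fell by 0.33 (SE 0.08) and SPRED2, an inhibitor of RAS signalling, by 0.36 (SE 0.09). In fibrillar against control arrays at 24 h the RAS and ERK list had 3 called higher and 1 lower of 30, with a median of 0.37, and the NF-κB list 2 higher and 0 lower of 18 by limma, with a median of 0.24. Over all genes 0.799% were called higher there and 0.391% lower, and the median was −0.00054. The other lists with a tested gene had 0 called by limma in that comparison, where 14.2% of all genes had an unadjusted p under 0.05.

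**Figure D5:**
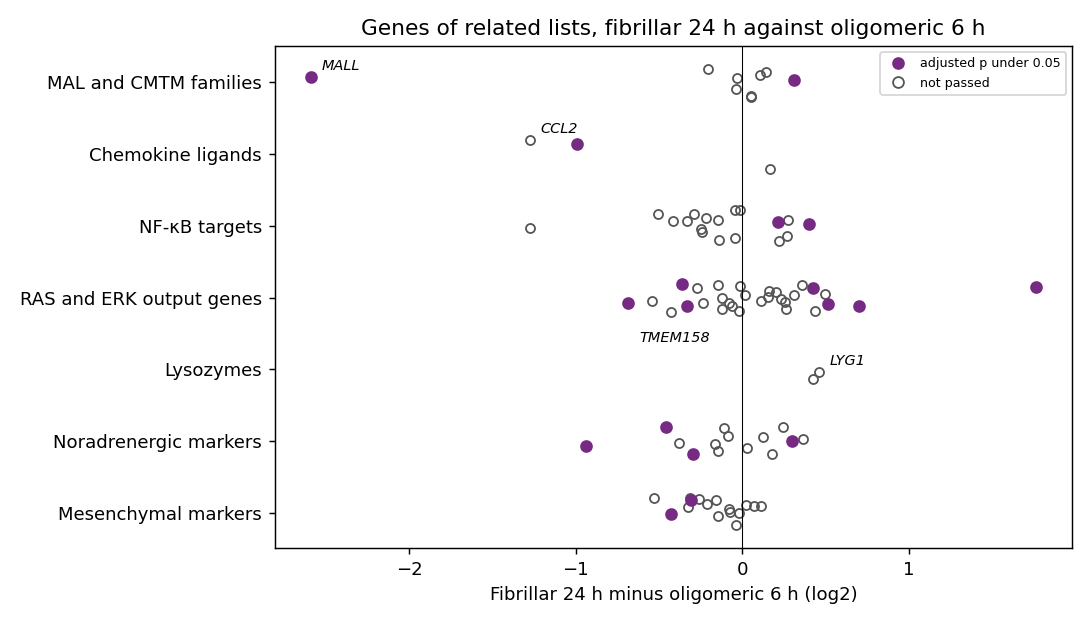
The fibrillar 24 h minus oligomeric 6 h difference in log2 signal (horizontal axis) is shown for each tested gene of 7 lists (rows), filled where the adjusted p was under 0.05 and open otherwise. MALL at −2.59 stands apart from the other genes of its row, which also holds MARVEL domain genes outside the MAL and CMTM families. CCL2 at −1.28 and CXCL12 at −0.99 are the lowest chemokine ligands.

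Most noradrenergic markers of the labelled cell line were above the filter, at uneven levels. GATA3 was at 12.1 and PHOX2A at 10.6 in fibrillar arrays, and at 12.1 and 10.9 in oligomeric arrays. HAND2 was dimmer, at 6.31 and 5.95. Of 15 markers with a probe set, 14 were above the filter. TH was under it, at no more than 2.86 on any array. Of the 14, 1 was called higher and 3 lower in fibrillar against oligomeric arrays, where 6.54% of all genes were called higher and 8.62% lower. STMN2 rose (0.30, SE 0.09), while DBH (−0.94, SE 0.09), TBX2 (−0.46, SE 0.08) and PHOX2A (−0.30, SE 0.08) fell. Markers of myeloid cells, a usual source of CCL2, had 0 of 11 genes above the filter. Epithelial markers, the cell type in which MALL is often studied, had 3 of 12 tested and none called, and 1 of 8 endothelial and 1 of 8 glial markers was tested, none called. Mesenchymal or S-type markers, which label the substrate-adherent cells of such lines, had 0 of 16 called higher and 2 lower in fibrillar against oligomeric arrays. Their mean level over 16 genes was 8.54 to 8.82 on fibrillar arrays and 8.84 to 8.89 on oligomeric arrays, and 8.52 to 8.55 in the 24 h controls against 8.86 to 8.94 in the 6 h controls. The control means of some other lists lay apart in the same direction. They were 7.22 to 7.27 in 24 h controls against 7.55 to 7.68 in 6 h controls for the RAS and ERK list. For the NF-κB list they were 5.99 to 6.11 against 6.32 to 6.43. These lists hold TMEM158 and RELB, which rank high by the fall between controls. Noradrenergic markers (9.97 to 10.08 against 10.04 to 10.08) and epithelial markers (4.75 to 5.25 against 4.67 to 5.06) overlapped. CXCR4, the tested chemokine receptor, was higher in the 24 h controls (8.97 to 9.25 against 8.67 to 8.90). TIMP1, a metalloproteinase inhibitor, fell by 0.43 (SE 0.09) and SNAI2, a zinc finger repressor, by 0.31 (SE 0.10) in fibrillar against oligomeric arrays, and 14 markers did not pass. In RNA from whole cultures, fewer cells of a type and less RNA per cell cannot be told apart, and the part of these markers in the members' levels was not tested.

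Of the RNA and array measures, 18S ribosomal RNA differed between the hours, while the 3′ less 5′ measures lay apart only between the controls. The signal of 18S ribosomal RNA ran from 11.8 to 11.9 with fibrils and 10.1 to 10.7 with oligomers, and from 11.4 to 11.8 in the 24 h controls and 9.31 to 10.3 in the 6 h controls. The 3′ less 5′ difference of GAPDH was 0.49 to 0.81 on fibrillar and 0.66 to 0.80 on oligomeric arrays. It was 0.47 to 0.52 in the 24 h controls against 0.77 to 0.83 in the 6 h controls. That of ACTB was 2.48 to 3.06 on fibrillar and 2.61 to 2.88 on oligomeric arrays. In the controls it was 2.34 to 2.65 at 24 h against 2.82 to 3.25 at 6 h. With the mean 3′ less 5′ value of GAPDH and ACTB as a covariate, the MALL difference between fibrillar and oligomeric arrays was −2.47 (limma adjusted p = 0.0377). With the same covariate the differences between fibrillar and control arrays at 24 h were 1.20 for MALL, 1.27 for CCL2, 2.08 for TMEM158 and 2.11 for LYG1, against 1.93, 1.51, 2.15 and 2.32 without it. The fibrillar response less the oligomeric response became 0.71 for MALL, 0.78 for CCL2, 1.87 for TMEM158 and 2.50 for LYG1.

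The genes whose profile over the 12 arrays was most like that of a member are given by Pearson correlation, as a description over arrays that share groups and scaling. Nearest to MALL were ABHD17C, a depalmitoylating enzyme (r = 0.95, Spearman rho = 0.80), TLNRD1 (0.95, 0.85) and RDH10, a retinol dehydrogenase (0.94, 0.92). In fibrillar against oligomeric arrays these 3 genes were lower, by 0.40, 0.44 and 0.72. The correlation used those same arrays, so a difference in the member's direction is largely built in and is not a separate result. Nearest to CCL2 were HS2ST1, a heparan sulfate sulfotransferase (0.97, 0.97), SSX2IP (0.95, 0.95) and SLC7A1, a cationic amino acid transporter (0.94, 0.91). Of these SLC7A1 was called lower, by 0.32 (limma adjusted p = 0.0204), with the same limit. VMP1, an autophagy protein (0.91, 0.74), YIPF5 (0.90, 0.64) and MIDEAS (0.89, 0.93) were nearest to TMEM158. CASP8, the initiator caspase (0.90, 0.54), CDC23, a subunit of the anaphase-promoting complex (0.90, 0.85), and SNRPA1, a spliceosome protein (0.90, 0.91), came closest to LYG1 after an uncharacterised gene.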

How the data were processed

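Each of the 12 arrays has a deposited log2 signal per probe set, and the submitters' processing notes name MAS5 as the software, with no version. On every array the linear signal had nearly the same trimmed mean, from 2% to 98%, so no further normalization was applied. The median log2 signal still differed between the controls, at 4.04 to 4.12 at 24 h against 3.89 to 4.01 at 6 h. It was 3.96 to 4.11 on fibrillar and 3.95 to 4.06 on oligomeric arrays. Of 54675 probe sets, 62 were controls, 41091 had 1 symbol, 1801 several and 11721 none. Probe sets with a mean at or above the median (log2 3.79) were kept, and the brightest of each gene was tested.

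A group-means model over all 12 arrays was fitted in R 4.3.3 using limma 3.58.1, with a prior variance following the level. P-values were Benjamini-Hochberg adjusted over 11767 genes, and an adjusted p under 0.05 was called. The fit was tested on simulated data. Members and gene lists were chosen with earlier results of these data known. The genes named were the members, the next genes by fall between controls (up to 3), up to 2 per list and direction by smallest p, and the 3 nearest by correlation. Uncharacterised genes were left unnamed. Others were named after their values were seen, as context: CRY2, DEPP1, CX3CL1, GATA3, PHOX2A and HAND2, genes adjacent to a member, and genes named only as under the filter. The difference between the responses was also added then. Replicate numbers were not used as pairs, since of 18 same-numbered array pairs 0 had deviations correlated above 0.1. That check takes all genes together and cannot decide on pairing for a single gene such as CCL2. Alternative settings are given at the end.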

Additional observations from a re-analysis of the deposited data

How the results depend on the processing

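In fibrillar 24 h against oligomeric 6 h arrays MALL kept its direction in every setting run, and its call was lost when the filter was dropped (−2.59, adjusted p = 0.0616), when probe sets were averaged (−2.59, 0.0564), with a constant (−2.59, 0.104) or robust (−2.59, 0.0744) prior variance and with array weights (−2.39, 0.0530). With array weights CCL2 passed in that comparison (−1.42, adjusted p = 0.0402), as did TMEM158 (2.18, 0.0390) and LYG1 (2.52, 0.0433) in fibrillar against control arrays. TMEM158 passed there after quantile normalization (2.24, 0.0474) and median centring (2.23, 0.0265). With the replicate number as a block CCL2 passed against oligomeric arrays (−1.28, adjusted p = 0.0052) and against the 24 h controls (1.51, 0.0161). Over all genes, same-numbered arrays had deviations that correlated between −0.03 and 0.09, so the numbers were not taken as pairs. This cannot decide on pairing for CCL2 alone. With the 3′ to 5′ covariate the oligomeric difference of MALL turned to 0.49. The filter at the 75th percentile left MALL, TMEM158 and LYG1 untested. The cause of these shifts was not tested.

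Leaving out single arrays gave ranges of −3.01 to −1.83 for MALL, −1.84 to −0.86 for CCL2, −0.89 to −0.09 for TMEM158 and −0.19 to 0.86 for LYG1 in fibrillar against oligomeric arrays. In fibrillar against control arrays they were 0.98 to 3.17, 0.95 to 1.93, 1.5 to 2.83 and 1.48 to 2.94 in the same order of genes. In oligomeric against control arrays they were −0.10 to 0.05, 0.01 to 0.73, −0.18 to 0.62 and −0.93 to 0.12, so MALL (0.02 without oligomeric replicate 3, 0.047 without control replicate 3), TMEM158 (−0.18 without oligomeric replicate 1, −0.10 without control replicate 1) and LYG1 (0.12 without oligomeric replicate 3) changed sign.

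In the other settings the count of genes called in fibrillar against oligomeric arrays ran from 1211, after median centring, to 2472, with every probe set. The count of genes called ran from 992 to 1890 in fibrillar against oligomeric arrays with single arrays left out. In fibrillar against control arrays, 140 in the fit reported, it ran from 14 to 185 in this way, at 87 and 21 without fibrillar replicates 1 and 3 and 14, 64 and 28 without control replicates 1, 2 and 3. It was 79 unfiltered, 62 with probe sets averaged, 7 with a constant prior variance, 268 with array weights, 35 with the 2 groups alone and 39 with the covariate. For the difference between the responses, 5 in the fit reported, it ran from 0 to 64 with single arrays left out. It was 3 after quantile normalization, with probe sets averaged, with every probe set or with the block, 13 after median centring, 0 with a constant prior variance, 27 with array weights, 1 with the covariate and 8 with 16 added to the signal.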

Other observations

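Oligomeric replicate 3 was the lowest array of its group for all 4 genes, with deviations from the group mean of −0.11 for MALL, −0.84 for CCL2, −0.92 for TMEM158 and −1.30 for LYG1. CCL2 was lowest on replicate 3 of every group, with deviations of −0.84 in the fibrillar, −0.82 in the 24 h control, −0.84 in the oligomeric and −0.52 in the 6 h control arrays. Of 24 protein-coding genes beside the members in the genome, 12 were tested in fibrillar against oligomeric arrays and 2 were called, where 15.2% of all genes were called. LARS2, next to TMEM158, differed by −0.01, and TXNDC9, next to LYG1, by 0.06. MTLN, near MALL, fell by 0.36 (limma adjusted p = 0.0474), and REV1, near LYG1, rose by 0.34 (adjusted p = 0.0183).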
